A study of Mus musculus with 27 samples.

Results

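The 36 genes described here drive the cell through DNA replication and division. They were taken as a fixed list of S phase and mitosis genes. The list was chosen with earlier results of these data known, so counts over it are not independent support. All 36 were found among the 35975 genes of the mouse annotation to which counts could be assigned. By role, 10 genes license replication origins and unwind DNA, 6 work at the replication fork, supply nucleotides or copy DNA methylation, 7 are cyclins, the kinase Cdk1 and the transcription factor Foxm1, 7 are mitotic kinases and spindle checkpoint proteins, 2 belong to the anaphase-promoting machinery, and 4 are chromosome and spindle proteins. For some summaries they were split into 18 genes of the G1/S transition and S phase (the origin, fork and nucleotide genes with Ccne1 and Ccne2) and 18 genes of G2 and mitosis.

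The study measured polyA RNA from 1 cm pieces of proximal and distal colon of adult mice of mixed background, 27 libraries from 14 mice. The 7 deficient mice were Villin1-Cre; Foxa1lox/lox; Foxa2lox/lox, aged 9 to 13 months, 2 of them labelled female. Villin1-Cre acts in the intestinal epithelium, so muscle, immune and other wall cells keep both genes. The 7 control mice were all labelled male and aged 9 to 18 months: 5 were Foxa1lox/lox; Foxa2lox/lox without Cre (replicates 2, 3, 4, 5 and 7), replicate 1 was Villin1-Cre; Foxa1lox/wt; Foxa2lox/wt, and replicate 6 was Villin1-Cre; Foxa1lox/lox; Foxa2lox/wt. Every group thus carried loxP alleles, and the control group is not uniform. Both segments came from the same mice for 13 of the 14, control replicate 7 having proximal colon only, which gives 7 control and 7 deficient proximal and 6 control and 7 deficient distal libraries.

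In the colon, division is confined to the lower crypt, where stem cells and their transit-amplifying daughters replace the surface epithelium, and these genes are widely used as marks of cycling crypt cells. Origins are licensed in G1 when Cdc6 and Cdt1 load the Mcm2 to Mcm7 helicase, cyclin E and E2F factors start S phase, and the S phase genes are largely E2F targets. The genes of G2 and mitosis are switched on later through the MuvB complex and Foxm1, which act at CHR elements and the CCAAT boxes beside them. In whole-tissue RNA, fewer cells of a type and less RNA per cell cannot be told apart, so every level below is an average over the tissue piece.

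Library totals were 18472867 to 56744113 estimated counts. Foxa1 had 50.9 to 69.4 counts-per-million (CPM) in 6 of the 7 proximal control libraries and 10.1 to 14.5 in the deficient ones. The proximal library labelled control replicate 6 had 13.9, and its distal library 7.60 against 42.4 to 80.8 in the other distal controls. Foxa2 had 6.05 to 15.7 CPM in proximal controls and 1.23 to 1.76 in deficient libraries, and 15.5 to 30.4 against 0.326 to 1.37 in distal colon. No pair of libraries agreed within sampling noise. Among pieces of the wall, epithelial genes such as Epcam (1995 CPM ± 215, SD, n = 7, in proximal controls) were present in every group, and genes of smooth muscle, neurons and immune cells were present too. The cell types were not separated, so the cells behind a division gene's level are not known.

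Per unit of transcript length, in the deposited transcripts-per-million values (TPM), Pcna, the sliding clamp of the replication fork, was the most abundant of the 36 in all 4 groups, at 132 ± 12.3 TPM (SD, n = 7) in proximal controls. Ube2c, the ubiquitin-conjugating enzyme of the anaphase-promoting complex, followed at 79.1 ± 16.1 TPM, then Cdk1 at 57.1 ± 13.9 TPM and Top2a, a DNA topoisomerase, at 55.2 ± 10.0 TPM. The spreads of Ube2c, Cdk1 and Top2a overlapped, so their order is not fixed by these samples. Cdc6 was the least abundant in all 4 groups, at 2.88 ± 0.231 TPM in proximal controls, with Ttk (4.38 ± 1.13 TPM) and Kif11 (4.82 ± 1.27 TPM) next. The lowest estimated count of a member in any library was 52, for Cdc6 in a distal deficient one.

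The members moved together from mouse to mouse. After each gene was centred within its group, the median Pearson correlation of log2 CPM over the 27 libraries was 0.75 across the 630 pairs, 0.89 among the mitosis genes, 0.72 among the S phase genes and 0.68 between them. These points share libraries, depth and tissue pieces, and 2 libraries of 1 mouse are not independent. Top2a and Aurka were closest to the rest, with median correlations of 0.85 and 0.86. Pcna stood furthest apart at 0.24, then Ccne2 at 0.42 and Ccne1 at 0.55, the cyclin E genes that open S phase. The map of correlations between members shows the pale rows of Pcna and Ccne2 against an otherwise positive block.

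**Figure D1:**
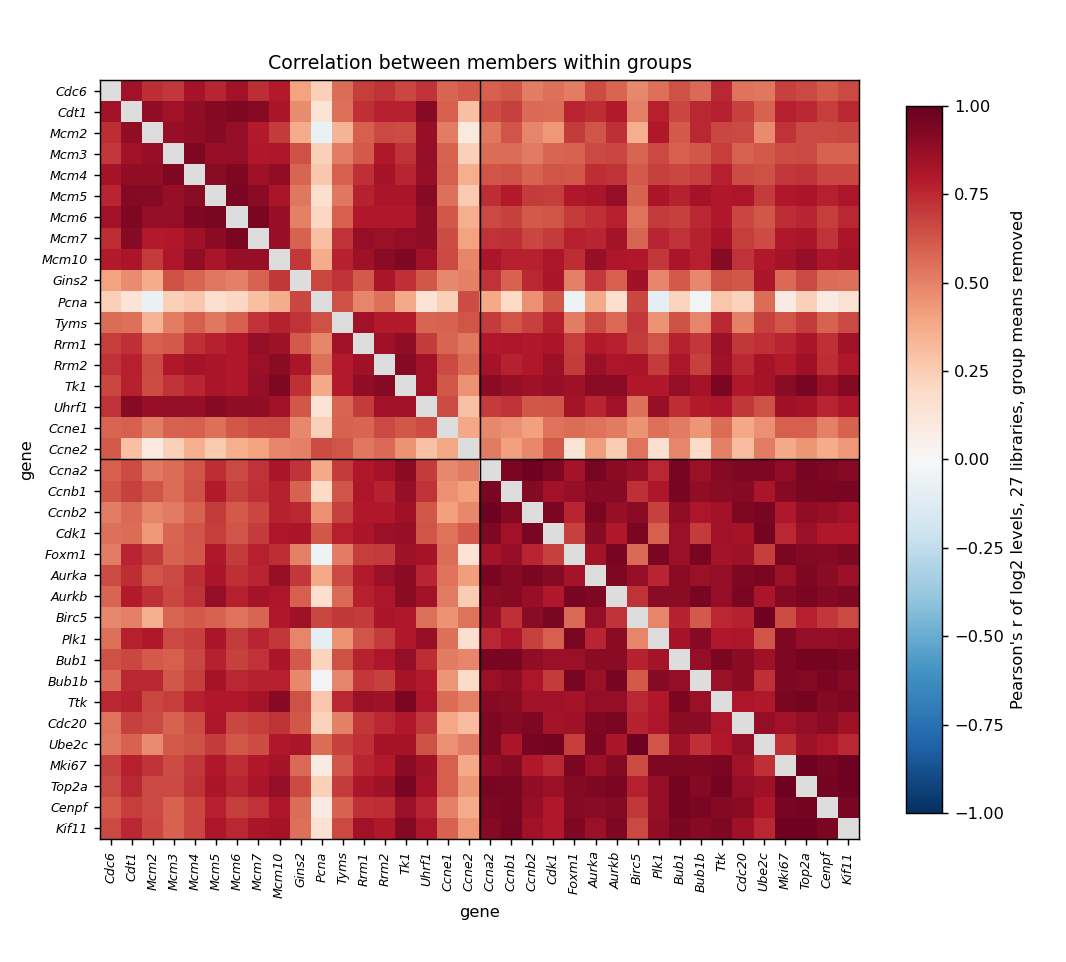
Pearson correlation between each pair of the 36 genes over 27 libraries, on log2 CPM with the group means removed (red positive, blue negative, grey the gene with itself). Lines divide the 18 S phase genes from the 18 mitosis genes, and the mitosis block is the most uniform, with a median of 0.89.

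Of 15538 genes ranked by their likeness to the mean of the 36, the 10 most alike outside the list were Nusap1 (r 0.977 over 27 libraries), Nuf2, Ckap2l, Ndc80, Melk, Kif22, Tpx2, Lmnb1, Oip5 and Kif15 (0.956). Nusap1, Tpx2, Kif15 and Kif22 act on spindle microtubules, and Nuf2 and Ndc80 are kinetochore proteins. The median correlation over all ranked genes was -0.03. By the same measure the 15 crypt stem cell and Wnt target genes had a median correlation of 0.42 with the members, the 10 epithelial genes -0.31, and the 11 B cell genes -0.05. The germinal centre B cell list, which marks dividing lymphocytes, had -0.09.

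Because the members move together, the letters before their RefSeq start sites are shown for 4 of them, with Cdc6 and Mcm6 standing for S phase and Plk1 and Cdk1 for mitosis. Each line gives the 150 bases before the RefSeq start site on the gene's own strand in build GRCm38.p6. The gene span used for counting starts earlier for Cdc6, at 98907801, so its printed stretch lies inside that span. For Cdk1 the span reaches 69352938, so the end of its stretch lies inside too. Capitals mark a match on either strand to a CHR, read here as TTTGAA, to a CCAAT box, searched by the letters of its name, or to an E2F word, which was any of TTTCGCGC, TTTGGCGC, TTTCCCGC and TTTGCCGC. A capital run in Mcm6 holds 2 overlapping E2F words.
Cdc6, chr11:98908001-98908150, plus strand: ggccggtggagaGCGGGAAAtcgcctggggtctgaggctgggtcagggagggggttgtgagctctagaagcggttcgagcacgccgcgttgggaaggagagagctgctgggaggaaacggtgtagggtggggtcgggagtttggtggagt
Mcm6, chr1:128359706-128359855, minus strand: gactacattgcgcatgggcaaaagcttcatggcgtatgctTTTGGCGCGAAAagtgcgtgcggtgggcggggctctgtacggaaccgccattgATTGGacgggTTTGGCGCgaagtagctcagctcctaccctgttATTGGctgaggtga
Plk1, chr7:122159285-122159434, plus strand: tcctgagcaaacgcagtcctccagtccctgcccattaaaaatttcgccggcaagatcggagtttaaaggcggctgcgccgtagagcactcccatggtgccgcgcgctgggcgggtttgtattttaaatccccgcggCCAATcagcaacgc
Cdk1, chr10:69352913-69353062, minus strand: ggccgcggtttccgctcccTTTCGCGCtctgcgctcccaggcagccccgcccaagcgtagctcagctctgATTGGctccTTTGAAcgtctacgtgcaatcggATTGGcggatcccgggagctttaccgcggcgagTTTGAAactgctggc
Cdk1 held all 3 kinds of word, including CHRs that begin at positions -71 and -15 from the start site. Plk1 showed a CCAAT box from position -14, and its CHR began at position 31 of the transcript, past the stretch printed. RefSeq windows of 300 bases around the start site were found for 30 of the 36 genes, 32 windows in all. A CHR was found in 40.6% of them and in 17.9% of all 32851 windows, a CCAAT box in 81.2% and 37.4%, and an E2F word in 25.0% and 2.26%. A forkhead word (TGTTTAC), the kind of letters Foxa proteins bind, was found in 1 member window, of Mcm7, which is 3.12% against 3.65% of all windows. The 13 genes with a CHR were mitosis genes except Mcm2, and the 8 genes with an E2F word were S phase genes except Cdk1. These matches describe letters only.

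In proximal colon, most of the 36 genes were near their control level in deficient mice, with Cdc6 and Ccne2 higher and Plk1 lower. A gene counted as changed when its p from edgeR's quasi-likelihood test, adjusted by Benjamini-Hochberg over all genes tested, was under 0.05. By that rule 2 members rose and 1 fell, 3 of 36, where 11.7% of all 16787 genes tested changed. The median log2 fold change was 0.01 for the members and 0.01 for all genes. For all 36 members the 95% interval of the fold change stayed within 2-fold in either direction.

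Cdc6 loads the Mcm helicase onto origins and lies at chromosome 11, 98907801 to 98923940. It had 5.03 CPM in the lowest, 6.10 in the median and 6.68 in the highest of the 7 control libraries, and 7.09, 7.57 and 8.27 in the 7 deficient ones. Every deficient library was above every control library, which held for 1 member of 36 and for 4.81% of all genes tested. The log2 fold change was 0.36 (SE 0.08, adjusted p = 0.00929 by edgeR).

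Ccne2 encodes cyclin E2, a partner of the kinase that starts S phase. Its level was 7.54, 8.89 and 11.2 CPM (lowest, median, highest) in controls and 10.0, 11.3 and 12.9 in deficient libraries. The groups overlapped, and 2 control libraries lay inside the deficient range. The log2 fold change was 0.34 (SE 0.10, edgeR adjusted p = 0.0402), and leaving out any 1 of 10 of the 14 mice raised its adjusted p above 0.05 (control replicates 1, 2, 5, 6 and 7, deficient replicates 1, 3, 4, 5 and 7).

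Plk1 is the kinase that drives centrosome maturation and mitotic entry. It had 45.3, 65.5 and 79.7 CPM in control libraries and 27.7, 42.0 and 62.5 in deficient ones. The groups overlapped, with 2 of 7 deficient libraries inside the control range. Its log2 fold change was -0.62 (SE 0.16, edgeR adjusted p = 0.0192), the largest of any member in proximal colon. Aurkb, the chromosomal passenger kinase, was next in size after these 3 members, at -0.27 (SE 0.21, adjusted p = 0.521), with 8.56, 19.5 and 24.5 CPM in controls and 7.97, 14.1 and 19.97 in deficient libraries, ranges that overlap almost entirely.

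The other proximal estimates were small and none passed. Of the 18 S phase genes, with Cdc6 and Ccne2 included, 15 had estimates above 0, with a median of 0.09. Of the 18 mitosis genes, with Plk1 included, 14 had estimates below 0, with a median of -0.10. Of all genes 8666 of 16787 were above 0. Since the members move together from mouse to mouse, these counts are not of independent genes. Among the helicase genes, Gins2, a subunit of the CMG helicase, had 0.22 (adjusted p = 0.102) and Mcm4 0.21 (adjusted p = 0.184), and Mcm2, Mcm3, Mcm5, Mcm6 and Mcm7 lay between -0.04 and 0.13. Mki67, the antigen used to stain cycling cells, was at -0.02 (SE 0.15, 95% interval -0.34 to 0.31), and Top2a at -0.01 (SE 0.14). The ratio of the geometric mean of the S phase genes to that of the mitosis genes was 0.687, 0.852 and 1.08 in control libraries (lowest, median, highest) and 0.827, 1.00 and 1.07 in deficient ones, so the ranges overlapped.

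Age and sex differed between the groups. Among mice of 9 to 13 months, the ages both genotypes share, no member passed, where 9.31% of all genes did. Cdc6 was at 0.26 (adjusted p = 0.102), Ccne2 at 0.21 (adjusted p = 0.326) and Plk1 at -0.62 (adjusted p = 0.0798), all by edgeR. The summed level of 16 Wnt target and crypt stem cell genes moved with genotype in the same libraries. It was 664.0, 761.5 and 868.5 CPM in controls and 427.8, 507.2 and 684.9 in deficient mice. Of all 16787 genes tested, 1035 were lower and 927 higher. Of the 16 genes on this list 6 were lower (Slc12a2, Cd44, Rgmb, Sox9, Lrig1 and Ephb3) and 2 higher. Slc12a2, the most abundant, had a mean of 322.7 CPM in controls and 199.4 in deficient mice. The 2 higher were the stem cell genes Lgr5 (0.85, edgeR adjusted p = 0.00462) and Olfm4 (4.62, edgeR adjusted p = 0.00453), the latter from a control mean of 0.261 CPM. The part of this list in these results was not tested.

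**Figure D2:**
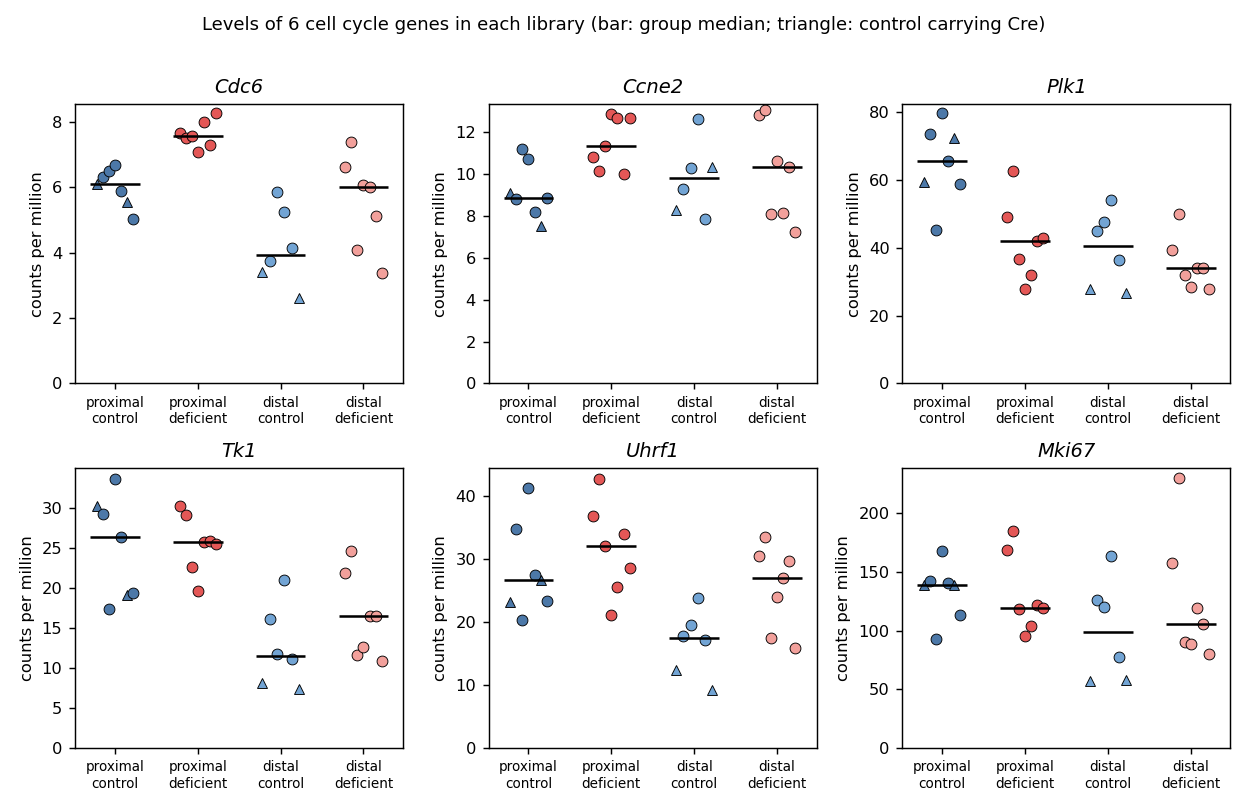
Levels of 6 genes in counts-per-million in each of the 27 libraries, by group, with a bar at the group median and triangles for control mice that carry Cre. All 7 proximal deficient libraries lie above all 7 proximal controls for Cdc6, and in distal colon the Cre-carrying controls are the lowest 2 of the controls for Cdc6, Tk1, Uhrf1, Plk1 and Mki67.

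In distal colon no member passed the test (0 of 36), where 6.07% of 16041 genes changed. By unadjusted p under 0.05 there were 4 of 36 (Uhrf1, Mcm4, Mcm6 and Pcna), against 2944 of 16041 genes. DESeq2 also called 0, where it called 9.36% of genes. A fit of all libraries together called 1, Mcm4, against 9.81% of genes. The estimates were nonetheless mostly above 0, 35 of 36, with a median log2 fold change of 0.25 against 0.01 for all genes. Of all genes 8297 of 16041 were above 0. No member had groups that did not overlap, against 3.4% of genes.

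Uhrf1, which brings the maintenance methyltransferase to newly copied DNA, had the largest distal estimate. Its level was 9.11, 17.4 and 23.7 CPM (lowest, median, highest) in 6 control libraries and 15.9, 26.96 and 33.5 in 7 deficient ones, a log2 fold change of 0.62 (SE 0.23, edgeR adjusted p = 0.147). The helicase subunit Mcm4 had 13.6, 23.4 and 28.3 CPM in controls and 22.4, 31.9 and 36.9 in deficient libraries, 0.48 (SE 0.18, adjusted p = 0.153). Cdc6 had 2.61, 3.94 and 5.86 CPM against 3.39, 6.0 and 7.397, 0.42 (SE 0.23, adjusted p = 0.366). In each of these genes the ranges of the groups overlapped, with a control as the lowest library and a deficient one as the highest.

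Mcm6 of the same helicase had 22.8, 37.9 and 43.7 CPM in controls and 31.3, 48.4 and 61.9 in deficient libraries, 0.40 (SE 0.18, adjusted p = 0.265). The nucleotide genes were spread in estimate, with Tk1 (thymidine kinase) at 0.39, Rrm1 and Rrm2 (subunits of ribonucleotide reductase) at 0.28 and 0.18, and Tyms (thymidylate synthase) at 0.11. Plk1 was the single member below 0, at -0.17 (SE 0.19, adjusted p = 0.709), with 26.7, 40.6 and 54.1 CPM in controls and 28.0, 33.9 and 50.03 in deficient mice. The mitosis genes had a median of 0.19, and their intervals were wide, with Mki67 between -0.33 and 0.97.

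**Figure D3:**
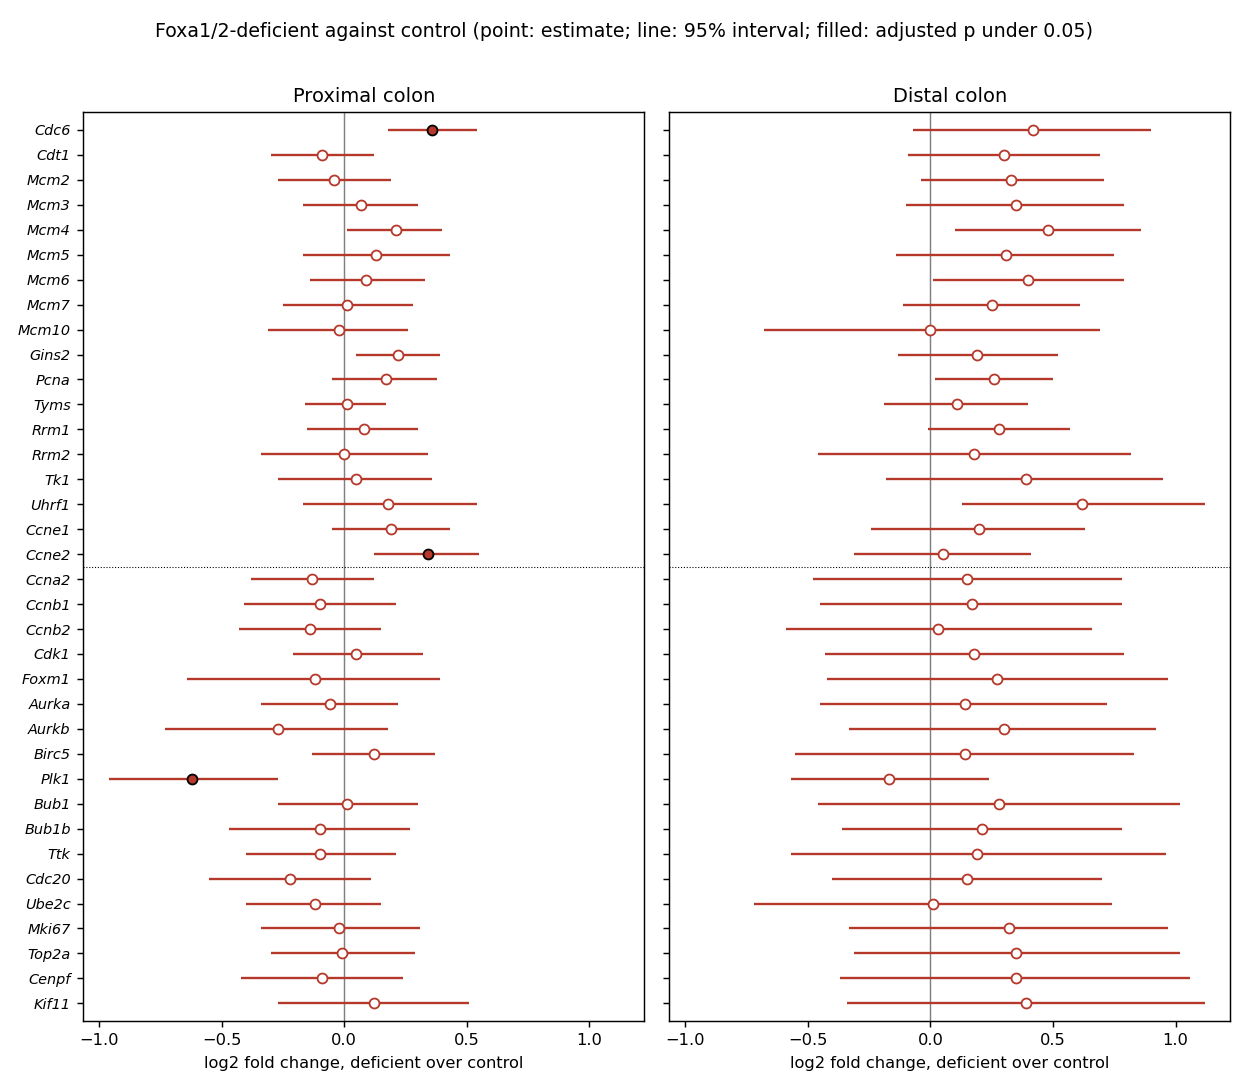
Log2 fold change of each of the 36 genes in deficient over control mice, in proximal (left) and distal (right) colon, with 95% intervals and filled points for adjusted p under 0.05. Proximal points scatter around 0 with Cdc6, Ccne2 and Plk1 filled, and 35 of 36 distal points lie right of 0 with none filled.

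The distal median depended on which mice were compared, and moved both down and up. The geometric mean of the 36 genes was 12.2 CPM in distal control replicate 1 and 12.4 in replicate 6, the 2 controls that carry Cre, and 18.3 to 27.7 in the 4 distal controls without Cre. Distal deficient libraries ran from 15.5 to 33.1, with a median of 20.9. Against the controls without Cre alone, the median member estimate in distal colon was 0.02 in place of 0.25, and that of Uhrf1 was 0.38 (SE 0.20, adjusted p = 0.406). The median was 0.16 without control replicate 1 alone, 0.15 without control replicate 6 alone and 0.09 without deficient replicate 2. With age as a covariate it was 0.07, and among mice of 9 to 13 months 0.12. It was larger in other fits, at 0.37 without control replicate 4 and 0.33 with the replicate number as a block. Among mice labelled male it was 0.33, and 0.43 among these without deficient replicate 3. In proximal colon control replicates 1 and 6 stood within the other controls, at 27.9 and 25.3 CPM against 20.6 to 34.7. Replicate 1 was 10.5 months old and replicate 6 was 18, and with 2 animals an effect of Cre cannot be told apart from other differences between the mice.

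The members varied more between mice in distal than in proximal colon. The median SD of log2 CPM over the members was 0.52 in distal control and 0.46 in distal deficient libraries, and 0.30 and 0.22 in proximal ones, while all genes tested lay between 0.26 and 0.31 in the 4 groups.

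Whether the genotype effect differed between segments was tested directly over the 13 mice with both segments, each mouse as a block. No member passed (0 of 36), where 1.01% of 17595 genes did. By unadjusted p under 0.05 there were 3 of 36 (Plk1, Mcm2 and Uhrf1), against 2026 of 17595 genes. DESeq2 also called 0 members, where it called 3.0% of genes. The estimate, distal effect minus proximal effect, was above 0 for 35 members with a median of 0.30. Over all genes tested it was above 0 for 9208 of 17595, with a median of 0.01. Aurkb had the largest, 0.63 (SE 0.30, 95% interval -0.01 to 1.27, adjusted p = 0.44), with distal levels of 5.93, 10.8 and 16.8 CPM in controls and 8.47, 12.0 and 23.4 in deficient mice. Plk1 followed at 0.53 (SE 0.20, adjusted p = 0.294), then Uhrf1 at 0.50 (SE 0.23, adjusted p = 0.401). Mcm2, a helicase subunit, was at 0.45 (SE 0.20, adjusted p = 0.384), with 22.1, 25.5 and 32.0 CPM in proximal controls and 12.3, 19.9 and 26.3 in distal controls. The 95% interval stayed within 2-fold for 31 of the 36, and the others reached beyond it. The median estimate was 0.03 with controls without Cre alone, 0.15 without control replicate 1 or among mice of 9 to 13 months, and 0.20 without deficient replicate 2. It was larger without other mice, at 0.42 without control replicate 3, 0.40 without deficient replicate 7 and 0.37 without control replicate 4.

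The clearest pattern was between segments: in control mice the members were lower in distal than in proximal colon. Of 36, 29 fell and 0 rose, where 22.3% of 16507 genes were lower and 21.5% higher. The median log2 difference, distal minus proximal in the same 6 mice, was -0.65 for the members and -0.05 for all genes. For 20 members every one of the 6 mice was lower in distal colon, against 20.6% of all genes, and for 12 members 5 of 6 mice were.

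Tk1, the thymidine kinase that salvages nucleotides in S phase, had the largest difference. Its level was 17.3, 26.4 and 33.6 CPM (lowest, median, highest) in proximal controls and 7.41, 11.4 and 20.9 in distal ones, a log2 difference of -1.09 (SE 0.17, edgeR adjusted p = 0.00102), and it was lower in 6 of 6 mice. Uhrf1 had 20.4, 26.7 and 41.2 CPM against 9.11, 17.4 and 23.7, -0.82 (SE 0.16, adjusted p = 0.00339). All 6 fork, nucleotide and methylation genes fell, and the smallest difference among them was that of Pcna, 104.9, 124.4 and 148.7 CPM against 80.7, 98.6 and 123.3, -0.38 (SE 0.10, adjusted p = 0.0163).

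Within the nucleotide genes, Tyms had 24.7, 27.8 and 36.4 CPM in proximal and 17.0, 20.2 and 30.4 in distal controls. Rrm1, the large subunit of ribonucleotide reductase, had 40.9, 51.8 and 65.6 against 29.8, 36.4 and 49.9. Rrm2 had 15.9, 22.6 and 36.4 against 8.35, 14.8 and 31.4. All 3 were lower in 6 of 6 mice, although the ranges of different mice overlapped.

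Among the 10 origin and helicase genes, 8 fell. Mcm5 had 23.5, 31.6 and 44.2 CPM in proximal and 12.8, 21.6 and 25.0 in distal controls, -0.76 (SE 0.15, adjusted p = 0.00329). Cdt1, the licensing factor degraded once S phase begins, had 15.6, 19.8 and 24.1 against 7.56, 12.7 and 15.5, and no distal control reached the lowest proximal one. Mcm7 had 34.5, 46.8 and 65.9 against 20.6, 28.6 and 38.8, Mcm6 43.0, 50.8 and 73.6 against 22.8, 37.9 and 43.7, and Mcm10, which activates the loaded helicase, 8.83, 13.6 and 17.3 against 3.56, 8.94 and 15.4. Mcm3 had 22.5, 25.5 and 37.0 against 12.0, 22.3 and 26.2. Cdc6 and Mcm2 also fell, by 0.60 and 0.48 on the log2 scale. The exceptions were Mcm4 at -0.24 (adjusted p = 0.129) and Gins2 at 0.12 (adjusted p = 0.334).

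Of the 7 cyclin, Cdk1 and Foxm1 genes, 5 fell. Ccnb1, the cyclin that drives entry into mitosis, had 22.3, 33.8 and 39.9 CPM in proximal and 11.1, 18.3 and 30.3 in distal controls, -0.90 (SE 0.19, adjusted p = 0.00539). Its partner Cdk1 had 25.3, 32.1 and 44.3 against 11.4, 19.2 and 34.4. Ccnb2 had 23.1, 31.9 and 41.5 against 10.5, 18.4 and 33.1. Ccna2, the cyclin of S phase and G2, had 44.8, 66.4 and 77.8 against 22.4, 38.0 and 70.1, and Ccne1 4.94, 5.70 and 7.87 against 3.13, 4.64 and 5.83. Each of these 5 was lower in 6 of 6 mice. Ccne2 did not pass, at 0.08 (SE 0.12, adjusted p = 0.61), nor did Foxm1, at -0.69 with a wide interval (-1.31 to -0.08, adjusted p = 0.0645).

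Of the 7 kinase and checkpoint genes, 6 fell. Plk1 had 45.3, 65.5 and 79.7 CPM in proximal and 26.7, 40.6 and 54.1 in distal controls, -0.76 (SE 0.17, adjusted p = 0.00613). Aurkb fell by 0.82 (SE 0.24) from 8.56, 19.5 and 24.5 CPM to 5.93, 10.8 and 16.8. Aurka, the centrosome kinase, had 12.9, 19.1 and 21.1 against 7.09, 12.4 and 19.98. The checkpoint kinases Bub1 (7.93, 12.9 and 14.2 against 3.29, 7.42 and 14.2) and Ttk (5.49, 9.03 and 10.5 against 2.77, 5.21 and 10.1) and their partner Bub1b (13.4, 22.8 and 28.4 against 8.87, 16.1 and 20.8) passed near the threshold, with adjusted p = 0.0449, 0.0494 and 0.036. Birc5, the survivin of the chromosomal passenger complex, was at -0.54 (adjusted p = 0.0878).

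Both genes of the anaphase machinery fell. Cdc20, the activator that starts anaphase, had 22.9, 36.03 and 45.6 CPM in proximal and 11.2, 21.9 and 32.2 in distal controls, -0.85 (SE 0.19, adjusted p = 0.00634), and Ube2c 30.9, 43.9 and 55.5 against 12.3, 27.2 and 50.1. Of the chromosome and spindle genes Kif11, the motor that separates spindle poles, and Top2a fell, with 10.2, 17.8 and 22.2 CPM against 6.01, 9.14 and 16.9 and with 74.6, 116.6 and 139.3 against 44.8, 71.7 and 132.2. Mki67 (-0.54, adjusted p = 0.0735) and Cenpf (-0.62, adjusted p = 0.0728) did not pass.

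The control count depended on the mice. Without control replicate 6 it was 19 of 36, where 19.9% of all genes were lower. With the 4 controls without Cre alone it was 15 and the median -0.40, against 16.0% of all genes. Among the 4 control mice of 9 to 13 months it was 11, against 16.4%, with 0 higher each time. The effective length used in quantification was shorter than the transcript by 249 bases in the distal libraries, all alike, and by 214.56 to 245.61 in the proximal ones, so this setting cannot be told apart from the segment. With an offset for these lengths 25 members fell, against 21.0% of all genes, and Rrm1 moved from -0.50 to -0.08 (adjusted p = 0.655).

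In deficient mice, 12 of 36 members were lower in distal colon and 0 higher, where 22.4% of 16514 genes were lower and 22.7% higher. The median was -0.33 against -0.03 for all genes, and 5 members were lower in 7 of 7 mice, against 17.4% of all genes. All 12 were among the 29 of the controls. That fewer passed in deficient than in control mice is not shown to be a difference between genotypes, since that difference is the comparison of genotype effects above, in which no member passed.

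Tk1 again had the largest difference, with 19.6, 25.7 and 30.3 CPM (lowest, median, highest) in proximal and 10.9, 16.4 and 24.6 in distal deficient libraries, -0.69 (SE 0.12, edgeR adjusted p = 0.0012), lower in 7 of 7 mice. Ccnb1 had 23.4, 30.2 and 36.6 CPM against 13.3, 16.7 and 41.6, -0.60 (SE 0.15, adjusted p = 0.00892), and Ccnb2 24.3, 29.7 and 34.5 against 14.02, 15.5 and 35.6, -0.59 (SE 0.16). For both cyclins the highest distal library, deficient replicate 2, was above every proximal one.

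Mcm10 had 10.4, 13.3 and 14.1 CPM against 4.82, 8.82 and 13.6, -0.58 (SE 0.17, adjusted p = 0.0194). Mcm5 had 22.7, 36.6 and 42.1 against 15.2, 25.9 and 35.3, Mcm7 35.5, 46.3 and 54.2 against 25.1, 35.97 and 45.0, and Cdc6 7.09, 7.57 and 8.27 against 3.39, 6.0 and 7.397. Mcm7, Mcm10 and Cdc6 were lower in 7 of 7 mice.

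The remaining 5 that fell were of several roles. Tyms had 26.03, 29.8 and 30.4 CPM against 19.6, 21.6 and 26.8, and Ccne1 5.77, 6.87 and 7.94 against 3.70, 5.46 and 7.12. Cdc20 had 22.1, 31.4 and 37.5 against 17.7, 20.1 and 40.7, Kif11 11.9, 17.0 and 23.4 against 7.71, 9.94 and 27.8, and Bub1b 14.1, 18.8 and 30.0 against 12.9, 13.6 and 33.5. In Cdc20, Kif11 and Bub1b the distal maximum was above the proximal one, and it belonged to deficient replicate 2. The count was 5 of 36 without deficient replicate 3, where 17.4% of all genes were lower. It was 6 without replicate 7, against 18.3%, and 19 without replicate 2, against 20.5%.

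**Figure D4:**
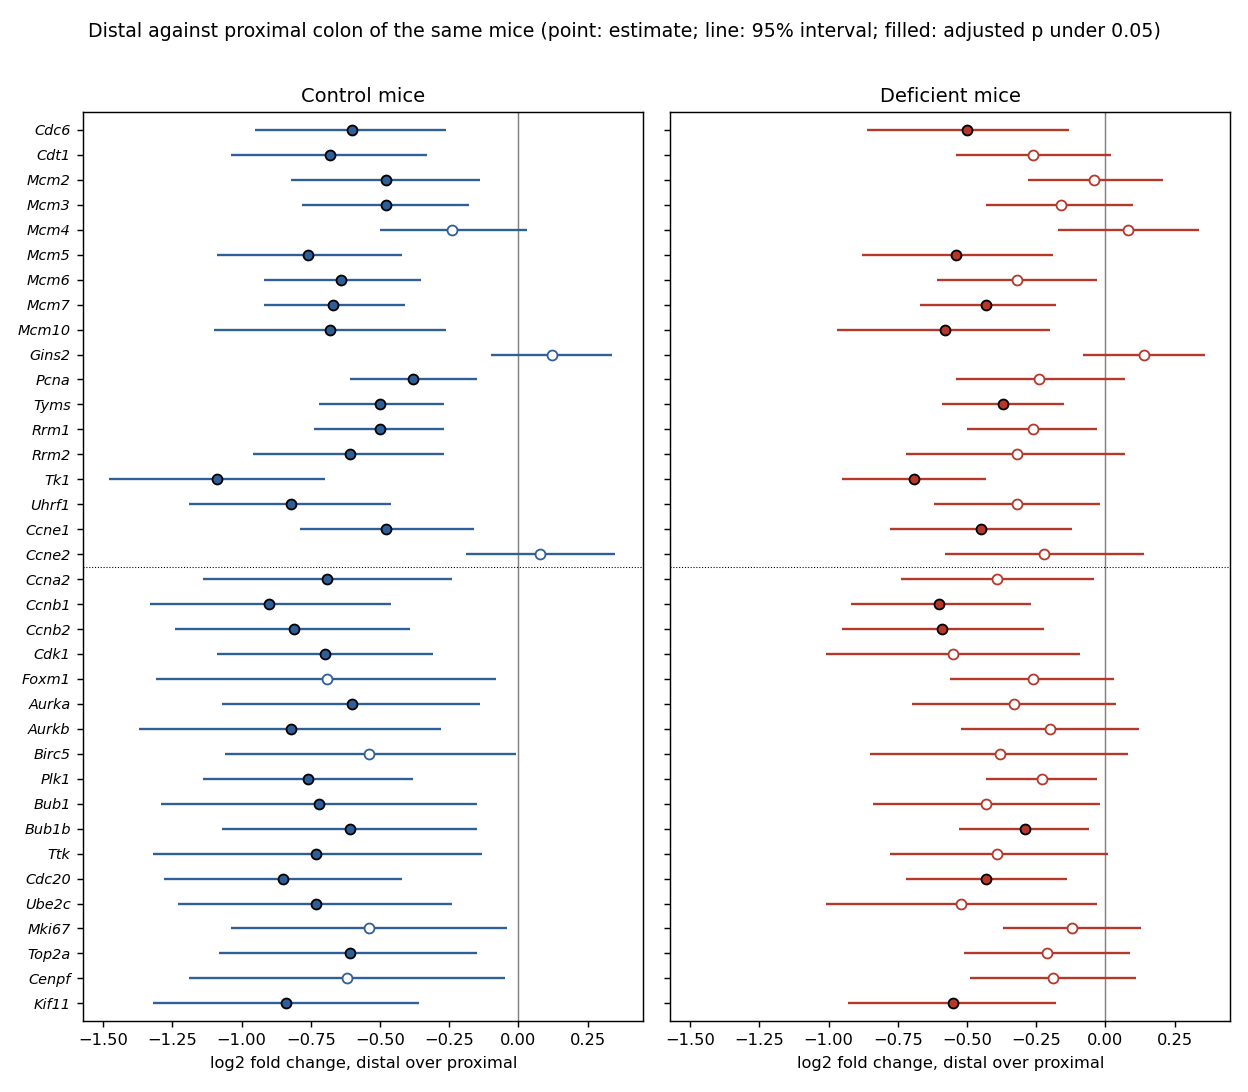
Log2 difference of each of the 36 genes, distal over proximal colon of the same mice, in 6 control (left) and 7 deficient (right) mice, with 95% intervals and filled points for adjusted p under 0.05. In controls 29 points are filled, all left of 0, and in deficient mice 12.

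Per mouse, the geometric mean of the 36 genes fell from proximal to distal colon in 6 of 6 controls and 6 of 7 deficient mice. Its level was 20.6, 27.9 and 34.7 CPM (lowest, median, highest) in proximal controls, 21.1, 26.2 and 30.7 in proximal deficient, 12.2, 18.7 and 27.7 in distal control and 15.5, 20.9 and 33.1 in distal deficient libraries. Deficient replicate 2 was the exception, at 30.7 CPM in proximal and 33.1 in distal colon.

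**Figure D5:**
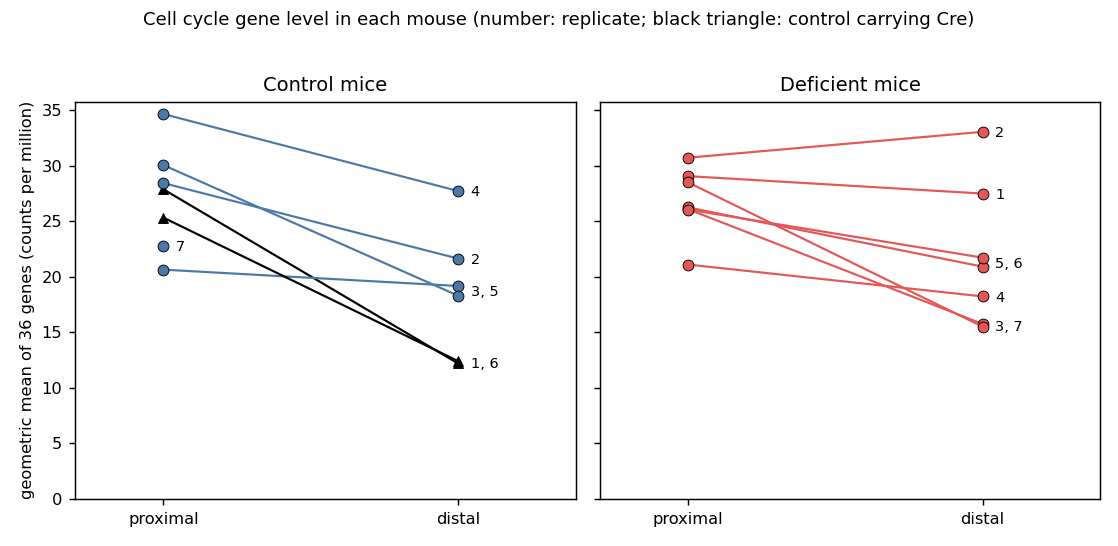
Geometric mean of the 36 genes in counts-per-million in proximal and distal colon, with lines joining the segments of each control (left) and deficient (right) mouse and black triangles for controls carrying Cre. Control replicates 1 and 6 end lowest in distal colon, at 12.2 and 12.4.

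Other genes of the same pathway were read from 10 lists, 173 genes outside the 36, of which 172 were tested in each segment. In proximal colon 5 rose and 6 fell with genotype, 6.4% of them against 11.7% of all genes. Pold3, a subunit of DNA polymerase delta, fell by 0.43 on the log2 scale (SE 0.07, edgeR adjusted p = 0.00038), from 36.8 ± 2.73 to 27.01 ± 2.01 CPM (SD, n = 7). The G1 cyclins Ccnd1 (-0.42, adjusted p = 0.0311) and Ccnd3 (-0.36, adjusted p = 0.0183) fell too. Mcmbp, which binds the Mcm helicase, fell by 0.23 in proximal and by 0.47 in distal colon. Plk2, a p53 target, fell by 0.74 and Ndrg1, a gene linked to differentiation, by 0.93. Among those that rose were Dna2 (0.36), a nuclease of the replication fork, Lin9 (0.31) of the MuvB complex, Sesn2 (0.46), a stress-induced p53 target, and Foxo3 (0.46), a quiescence factor.

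In distal colon 5 of the 172 rose and 1 fell, 3.49% against 6.07% of all genes. Cdk6, a G1 kinase, rose by 0.69 (SE 0.14, adjusted p = 0.00926), E2f2 by 0.49, Rpa1, which coats single-stranded DNA, by 0.35, and Sesn2 by 0.77. Mycn rose by 1.57 from a low level, 0.730 ± 0.145 CPM (SD, n = 6) to 2.18 ± 1.28 (n = 7). In edgeR's test of the difference between segments 0 of 173 pathway genes passed, against 1.01% of all genes. An unadjusted p under 0.05 was found for 16 of 173, against 2026 of 17595 genes. DESeq2 called 3 of 173, against 3.0% of all genes.

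Between segments of control mice, 86 of the 172 were lower in distal colon and 13 higher, with a median of -0.41. For these and the list counts that follow, 22.3% of all genes were lower and 21.5% higher. Lower in distal colon were 20 of 28 fork and chromatin assembly genes, 16 of 26 spindle, condensin and cytokinesis genes, 12 of 19 kinetochore genes, 10 of 18 mitotic entry genes and 9 of 17 origin genes. The nucleotide synthesis list was mixed, with 5 of 16 lower and 2 higher: Dtymk, a thymidylate kinase, fell by 0.80, while Ppat and Paics of purine synthesis rose by 0.69 and 0.47. Pold2 fell by 0.97, Rfc2 of the clamp loader by 0.77, the kinase Cdc7, which fires origins, by 1.07, and the phosphatase Cdc25c, which activates Cdk1, by 1.09. The list of quiescence genes went the other way, with 5 of 11 higher and 1 lower, and Klf4, a factor of differentiated surface cells, was at 607.1 ± 98.1 CPM in proximal and 1451 ± 221 in distal controls. Cdkn1a, the p21 inhibitor of cyclin-dependent kinases, was higher in distal colon by 0.94 in controls and 0.85 in deficient mice, and the inhibitor Cdkn2c was lower, at -0.73 and -0.72. In deficient mice 39 of 172 pathway genes were lower and 19 higher, with a median of -0.17, so the share that was lower was close to the 22.4% over all genes.

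Genes of other cell types moved between segments in the same libraries. Of all genes, 22.3% were lower and 21.5% higher in distal colon in controls, and 22.4% and 22.7% in deficient mice. In control mice 8 of 10 epithelial genes were higher in distal colon and 0 lower, with the summed level at 11628.7 to 18511.8 CPM in proximal and 17069.4 to 27342.0 in distal controls. B cell genes were higher for 10 of 11 in controls and 11 of 11 in deficient mice, summing to 16.5 to 204.0 CPM in proximal and 46.6 to 397.2 in distal controls. Smooth muscle genes were lower for 4 of 8 in controls and 8 of 8 in deficient mice, with sums of 1491.7 to 3029.4 against 1060.9 to 3346.0 CPM in controls and 1922.5 to 3524.5 against 464.0 to 1710.0 in deficient mice. Of the Wnt target and crypt stem cell genes 5 were lower and 1 higher among 14 tested in controls, with sums of 664.0 to 868.5 and 477.5 to 885.1 CPM. Of the T and NK cell genes 5 of 12 were lower and 0 higher in controls (Cd3e, Cd8a, Nkg7, Gzmb and Ncr1), with sums of 54.5 to 110.0 CPM in proximal and 32.1 to 89.3 in distal colon. Enteric neuron and glia genes were lower for 4 of 9 in controls (Tubb3, S100b, Sox10 and Gfap) and 7 of 9 in deficient mice, with control sums of 28.1 to 47.4 against 15.8 to 32.9 CPM. The part of these shifts in the lower level of the division genes was not tested.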

How the data were processed

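Per the submitters' processing notes, bcl2fastq 2.20.0.422, cutadapt 2.5, kallisto 0.46.2 and edgeR were used with GRCm38 and mm10, roles not stated. The authors deposited estimated counts and TPM per transcript for each library, with length and effective length, and a log2 matrix per segment, on a CPM scale by its values. The sources used here give no scaling method for it. Library preparation was with NEBNext Ultra after polyA selection, per the labels' protocols.

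Estimated counts were summed per gene through the transcripts of GENCODE M21 and rounded. Transcripts matched to no gene of it held 0.902% to 1.27% of counts and were left out. The counts were tested with edgeR 4.0.16 (filterByExpr, TMM, quasi-likelihood F test, Benjamini-Hochberg over all genes tested) in R 4.3.3, within a segment for genotype and with mouse as a block between segments, since the labels of both segments carry the same number for a mouse. Same-mouse segments correlated at -0.17 to 0.51, above 0.1 in 10 of 13 mice. SE is the log2 fold change divided by the square root of F. CPM levels use TMM factors over all 27 libraries, and correlations log2(CPM + 0.5). The deposited TPM was used to compare levels between genes per length and to weight transcripts in a length offset, and the log2 matrix for an alternative fit with limma 3.58.1. DESeq2 1.42.0 was another alternative. The fits were tested on simulated data with known changes. Of genes changed 1.5-fold, 50% were recovered in proximal and 28.4% in distal colon, and 6.1% for the difference between segments. Between segments it was 25.8% in control and 23.9% in deficient mice. In the same order, 2.8%, 3.3%, 12.4%, 10.1% and 4.1% of the calls were false. So in the simulation changes of this size were often missed, and for 2 of the comparisons false calls exceeded the level set. Few genes were changed in it. Between segments of control mice, 66, 66 and 65 of 16360 genes were changed 1.5-fold, 2-fold and 4-fold. In the data 7231 of 16507 genes were called there, so the simulated shares need not hold for these data. No test of a whole list was run.

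The members and all lists were chosen with earlier results of these data known, so no count over them is independent support. Named genes were the called members, the 4 members of largest change per comparison, up to 4 genes of smallest p per pathway list, and the 10 genes most alike; other members are named in passing. The labels name a separate mouse for each replicate and give no litter or day. Deficient replicate 3, labelled male, had Ddx3y counts of 1 and 22, against 771 to 3437 in the other libraries labelled male, and was left out in one alternative.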

Additional observations from a re-analysis of the deposited data

Results flagged for a closer look

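The values below lay far from the other libraries of their group. Among 160 groups of values examined, 8 held such a value, and chance alone flags about 1 in 20, which is 8. Distal deficient replicate 2 held 3 of the 8, all mitosis genes: Ccnb1 was at 41.6 CPM against 13.3 to 24.7 in the other libraries of the group, Bub1b at 33.5 against 12.9 to 19.3, and Cenpf, a kinetochore protein, at 56.5 against 17.2 to 33.6. Proximal control replicate 4 was high for Gins2, at 37.6 against 25.4 to 30.1, and for Rrm2, at 36.4 against 15.9 to 23.9. Proximal deficient replicate 4 was low for Rrm2, at 15.2 against 22.7 to 24.6, and for the geometric mean of the 18 S phase genes, at 21.9 against 26.1 to 27.9. Proximal deficient replicate 2 was low for Tyms, at 26.03 against 29.6 to 30.4.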

How the results depend on the processing

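In proximal colon the 3 members called became 0 among mice of 9 to 13 months, 1 among mice labelled male, 0 among these without deficient replicate 3, 1 with the replicate number as a block and 1 in a fit of all libraries. Of all genes, 8.06% to 10.4% were called in these fits. In distal colon 0 became 1 in the fit of all libraries, and stayed 0 with the replicate block. The difference between segments stayed at 0 under every alternative run, also with no mouse block. In control mice the 29 lower in distal colon became 11 at 9 to 13 months, where 16.4% of all genes were lower. They became 15 without the Cre carriers, an alternative chosen after seeing the data, against 16.0% of genes. With no mouse block they became 20, against 20.3%. In deficient mice the 12 became 7 with no mouse block, where 22.9% of all genes were lower. Leaving out 1 mouse at a time gave, in the same order, 2 to 4, 0 to 0, 0 to 0, 19 to 33 and 5 to 19. In controls the 19 came without control replicate 6, where 19.9% of all genes were lower. In deficient mice the count was 5 without replicate 3 (17.4% of all genes), 6 without replicate 7 (18.3%) and 19 without replicate 2 (20.5%). Same-numbered control and deficient mice had correlations above 0.1 in 1 of 7 proximal and 2 of 6 distal pairs, so the numbers do not pair mice. Of 3456 values of single members under these alternatives, 136 lost and 31 gained a call, 204 uncalled values changed sign, and 0 called ones did. Over all genes, distal calls were 973 against 1502 by DESeq2, 569 for mice labelled male without deficient replicate 3 and 1729 in the fit of all libraries. Calls of a difference between segments were 178 against 528 by DESeq2, 106 at 9 to 13 months, 102 without control replicate 2 and 110 without deficient replicate 3. Pathway calls in proximal colon were 11 against 5 with age as a covariate or at 9 to 13 months, 7 for mice labelled male without deficient replicate 3 and 6 without control replicate 2, 5 or 7 or deficient replicate 7. In distal colon they were 6 against 3 with the length offset or replicate block, 2 for that male subset and 13 in the fit of all libraries. For the difference between segments 0 became 3 by DESeq2 and 1 with no mouse block or without deficient replicate 2. Between segments 99 became 39 at 9 to 13 months, 45 without Cre carriers, 56 without control replicate 1 and 53 without replicate 5 in controls, and 58 became 32, 37 and 35 without deficient replicates 3, 6 and 7. The causes were not tested.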
